A study of Mus musculus with 6 samples.

Results

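The TGF-beta, activin and BMP signalling genes form a module of 51 genes, fixed by name as the ligands, latency proteins, receptors, Smads, inhibitors and classical targets of the pathway. All 51 were found by symbol among the 18849 genes of the deposited expression table. Kidney messenger RNA was sequenced in 6 libraries of male mice of the C57BL/6 strain, aged 8 weeks, after 14 days of unilateral ureteral obstruction (UUO), in which a tied ureter damages the tubules and the kidney scars. There were 3 knockout libraries, from c-Abl loxP mice that also carried Ksp-Cre (c-AblEpi-cKO in the design text, c-Abl knockdown in the genotype label). The other 3 came from c-Abl flox/flox mice without the Cre, whose genotype label reads WT and which are called floxed here. Ksp-Cre is driven by the promoter of kidney-specific cadherin (Cdh16). Recombination is therefore meant to be limited to tubule epithelium, with Abl1 kept in other kidney cells. Where recombination took place cannot be read from these whole-tissue values. Both groups were obstructed, so each value compares obstructed kidneys with obstructed kidneys. The comparison asks what loss of tubular c-Abl does to gene expression in the scarring kidney. Whether every library is a different animal is not stated, and the p-values therefore cover only the spread among these 6 libraries, which may be technical.

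Ligands of this family bind pairs of type I and type II serine/threonine kinase receptors, which phosphorylate Smad proteins that enter the nucleus with Smad4. In the TGF-beta and activin arm the receptors use Smad2 and Smad3, and the pathway is known for driving fibroblast activation and matrix deposition in injured kidney. In the BMP arm the receptors use Smad1, Smad5 and Smad9 and switch on the Id genes. BMP7 made by tubule cells is known to counter TGF-beta signalling in kidney. Here 20 genes were placed in the TGF-beta and activin arm, 20 in the BMP arm, and 11 that serve both arms or stand outside them were kept apart as shared genes.

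Values are FPKM, fragments counted per kilobase of gene and scaled to the library's mapped fragments, so levels can be compared between genes. The depth is not given, and the spacing of low values put it at about 16150000 to 18000000 fragments per library, at which 1 FPKM in a 2-kb transcript stands for 32.3 to 36.0 fragments. The targeted gene Abl1 read 10.46, 14.45 and 12.91 FPKM in knockout replicates 1, 2 and 3, against 18.16, 15.93 and 17.33 FPKM in floxed replicates 1, 2 and 3 (limma adjusted p = 0.144). Knockout replicate 3 stood apart from the other knockout libraries. Across genes, which are not independent, its log2 values correlated at 0.968 to 0.969 with each floxed library, at 0.941 with knockout replicate 1 and at 0.960 with knockout replicate 2. Kidney markers were present in every library, and adrenal markers, a check for tissue carried along in dissection, summed to no more than 2.54 FPKM. The table gives whole tissue, in which fewer cells of a type and less RNA per cell cannot be told apart.

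Most genes of the TGF-beta and activin arm read lower in the knockout kidneys, whereas the BMP arm was mixed. Of the 51 genes, 48 reached 1 FPKM in at least 3 libraries and were tested with limma on log2(FPKM + 1), knockout minus floxed. None of the 48 passed the threshold of 0.05 after adjustment over all 13390 genes tested, a threshold that 0.0672% of genes passed. At an unadjusted limma p under 0.05, 17 of the 48 were lower and 2 were higher in the knockout kidneys. That is 35.4% lower, against 16.3% of all genes tested, and 4.17% higher, against 8.38% of all genes tested. With median-ratio scaling, which brings the libraries to a common centre, 11 members were lower and 5 higher, where 11.3% of all genes were lower and 13.5% higher. With quantile scaling 12 members were lower and 4 higher, where 12.1% of all genes were lower and 12.2% higher. The 3 knockout libraries all lay below the 3 floxed libraries for 15 of the 48 genes (31.2%, against 21.7% of all genes tested). They all lay above them for 2 genes (4.17%, against 10.0%). Without knockout replicate 3, 24 members were lower and 1 was higher past the adjusted threshold, where 15.4% of all genes were lower and 9.02% higher. With array weights, which count an aberrant library less, 10 members were lower and 2 higher past that threshold, where 6.48% of all genes were lower and 4.39% higher. Knockout replicate 3 lay toward the floxed ones and is singled out for that reason, so the larger count is no added support. The same holds for values of single members given below without that library. At the unadjusted level the count of lower members was 30 without knockout replicate 3 (27.1% of all genes lower, 13.4% higher). It was 11 without knockout replicate 1 or floxed replicate 3 (10.1% and 10.8% of all genes lower). The count of higher members was 4 without knockout replicate 1 or floxed replicate 1 (5.79% and 7.2% of all genes higher). It was 1 without floxed replicate 2 or floxed replicate 3 (5.06% and 5.2% of all genes higher).

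The arms differed in their medians on the log2(FPKM + 1) scale. The median log2 fold change was -0.73 over the 20 genes of the TGF-beta and activin arm, -0.18 over the 17 tested genes of the BMP arm and -0.39 over the 11 shared genes, beside -0.12 over all genes tested. In the TGF-beta and activin arm 18 of 20 log2 fold changes were below 0, against 10 of 17 in the BMP arm and 65.4% of all genes. At an unadjusted limma p under 0.05, 10 genes of the TGF-beta and activin arm were lower (50.0%) and 0 higher. The BMP arm had 4 lower (23.5%) and 2 higher (11.8%), nearer to the 16.3% lower and 8.38% higher of all genes tested. Without overlap, 8 genes of the TGF-beta and activin arm were lower (40.0%) and 0 higher. By that measure the BMP arm had 5 lower (29.4%) and 2 higher (11.8%), against 21.7% and 10.0% of all genes tested. The arms lay closer together by that measure. The difference between the arms was not tested, since their genes were chosen with results of these data known. By role, the medians lay apart for ligands (-1.31 in the TGF-beta and activin arm, 0.08 in the BMP arm). For targets the values were -0.80 (Tgfbi alone) and 0.55 (median of the 4 Id genes). The median of the Id genes was -0.22, 0.89 and 0.66 in knockout replicates 1, 2 and 3. A further list of BMP targets, given below, had a median of -0.31 over 6 tested genes. The medians of the arms lay closer for receptors (-0.53 and -0.37) and Smads (-0.24 and -0.38). For inhibitors the median was -0.67 in both arms. In the BMP arm it rested on 2 tested genes, Fstl1 at -1.40 and Smad6 at 0.06, and describes neither. The latency genes, with a median of -0.81, stood in the TGF-beta and activin arm only, so the arms also differed in make-up. In knockout replicates 1, 2 and 3 the median difference from the floxed mean was -1.04, -0.75 and -0.26 for the TGF-beta and activin arm. For the BMP arm it was -0.51, -0.06 and 0.04, and for all genes -0.23, -0.12 and -0.03. In each knockout library the TGF-beta and activin arm therefore had the lower median of the pair, and knockout replicate 3 was nearest to the floxed level in both arms. Leaving out 1 library at a time gave medians of -0.94 to -0.53 for the TGF-beta and activin arm. For the BMP arm they ran from -0.35 without knockout replicate 3 to -0.001 without floxed replicate 3, with -0.01 without knockout replicate 1. Median-ratio scaling, which put the median of all genes at 0.02, put the TGF-beta and activin arm at -0.59 and the BMP arm at -0.02.

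**Figure D1:**
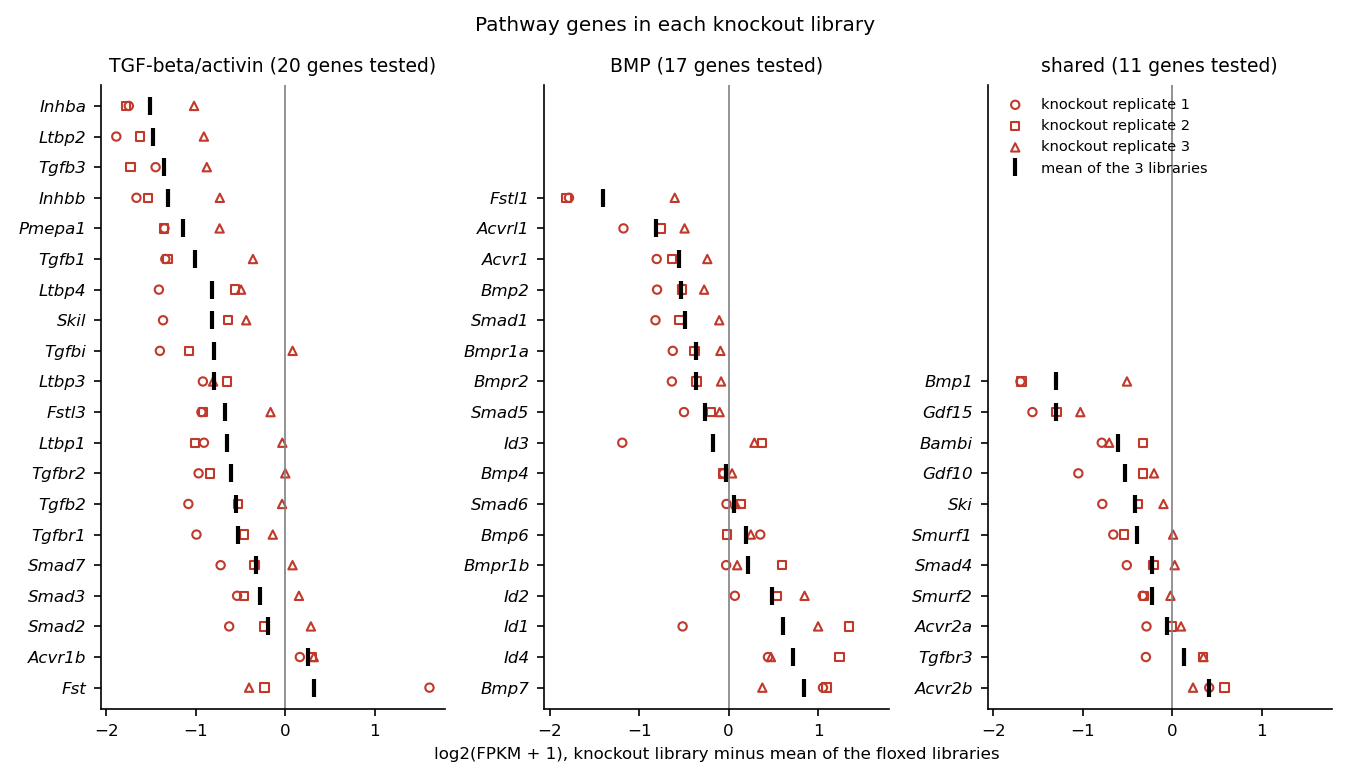
Difference of each knockout library from the mean of the floxed libraries, on the log2(FPKM + 1) scale, for the 48 genes tested, by arm. Points are the 3 knockout libraries and vertical ticks their mean. Most ticks of the TGF-beta and activin arm lie left of 0, down to -1.52 for Inhba, while the BMP arm spans -1.40 for Fstl1 to 0.84 for Bmp7.

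**Figure D2:**
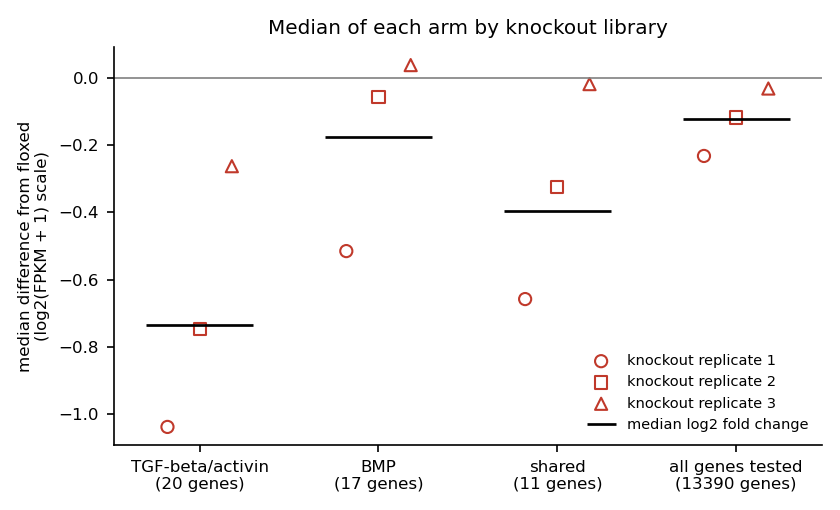
Median difference from the floxed mean over the genes of each arm and over all genes tested, on the log2(FPKM + 1) scale, for each knockout library (points), with the median log2 fold change of the fit (lines). The TGF-beta and activin arm lies lowest in all 3 knockout libraries, at -1.04, -0.75 and -0.26.

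Among the ligands of the TGF-beta and activin arm, all 5 read lower on average in the knockout kidneys, and for 4 of them the groups did not overlap. Over all genes tested, 65.4% had a log2 fold change below 0 and 21.7% were lower without overlap. Tgfb1, the main profibrotic TGF-beta, read 15.78, 16.08 and 32.08 FPKM in knockout replicates 1, 2 and 3, against 37.86, 42.71 and 44.12 FPKM in floxed replicates 1, 2 and 3. The knockout libraries all lay below the floxed ones, with knockout replicate 3 nearer to the floxed libraries than to the other knockout libraries. Its mean was 21.3 ± 9.33 FPKM in knockout and 41.6 ± 3.28 FPKM in floxed kidneys (SD, n = 3 each), 1.95-fold higher in floxed. The log2 fold change was -1.01 (SE 0.267, limma adjusted p = 0.0986), and -0.85 with median-ratio scaling. Without knockout replicate 3, singled out as lying toward the floxed libraries, the log2 fold change was -1.33, which is no added support. An exact two-sided permutation test of the 6 values gave p = 0.1, the smallest that 3 against 3 libraries allow, and it gave the same for each member whose groups did not overlap.

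The other isoforms were far less abundant. Tgfb3, which shares receptors with Tgfb1, read 1.55, 1.10 and 2.79 FPKM in knockout replicates 1, 2 and 3, against 4.10, 7.46 and 6.81 FPKM in floxed replicates 1, 2 and 3. The groups did not overlap (log2 fold change -1.35, SE 0.284, limma adjusted p = 0.0687). Tgfb2 read 1.71, 2.98 and 4.60 FPKM in knockout kidneys, against 4.48, 5.36 and 4.42 FPKM in floxed kidneys. Its knockout replicate 3 lay within the floxed range (limma adjusted p = 0.246). Within each library Tgfb1 made up 79.8% to 82.9% of the summed FPKM of the 3 isoforms in knockout kidneys and 76.9% to 81.5% in floxed kidneys, so the order of isoforms was led by Tgfb1 in every library. The Tgfb3 share was 8.14%, 5.46% and 7.07% in knockout replicates 1, 2 and 3, against 8.83%, 13.4% and 12.3% in floxed replicates 1, 2 and 3. Tgfb2 and Tgfb3 did not keep 1 order: Tgfb2 read above Tgfb3 in all knockout libraries and in floxed replicate 1, and below it in floxed replicates 2 and 3.

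Of the activin genes, Inhba had the lowest log2 fold change of any ligand. It encodes the beta-A subunit that pairs into activin A, and it read 0.40, 0.37 and 1.32 FPKM in knockout replicates 1, 2 and 3, against 2.37, 4.74 and 4.37 FPKM in floxed replicates 1, 2 and 3. Every knockout library lay below every floxed one, and the mean was 5.49-fold higher in floxed kidneys. Its log2 fold change of -1.52 (SE 0.294, limma adjusted p = 0.0635) was the lowest of the 48. It cleared the filter on low values through its floxed libraries, and only knockout replicate 3 of the knockout libraries reached 1 FPKM. Inhbb, the beta-B subunit, read 1.92, 2.19 and 4.57 FPKM in knockout kidneys, against 6.37, 13.08 and 6.61 FPKM in floxed kidneys. The groups did not overlap (log2 fold change -1.31, SE 0.340, limma adjusted p = 0.0957).

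**Figure D3:**
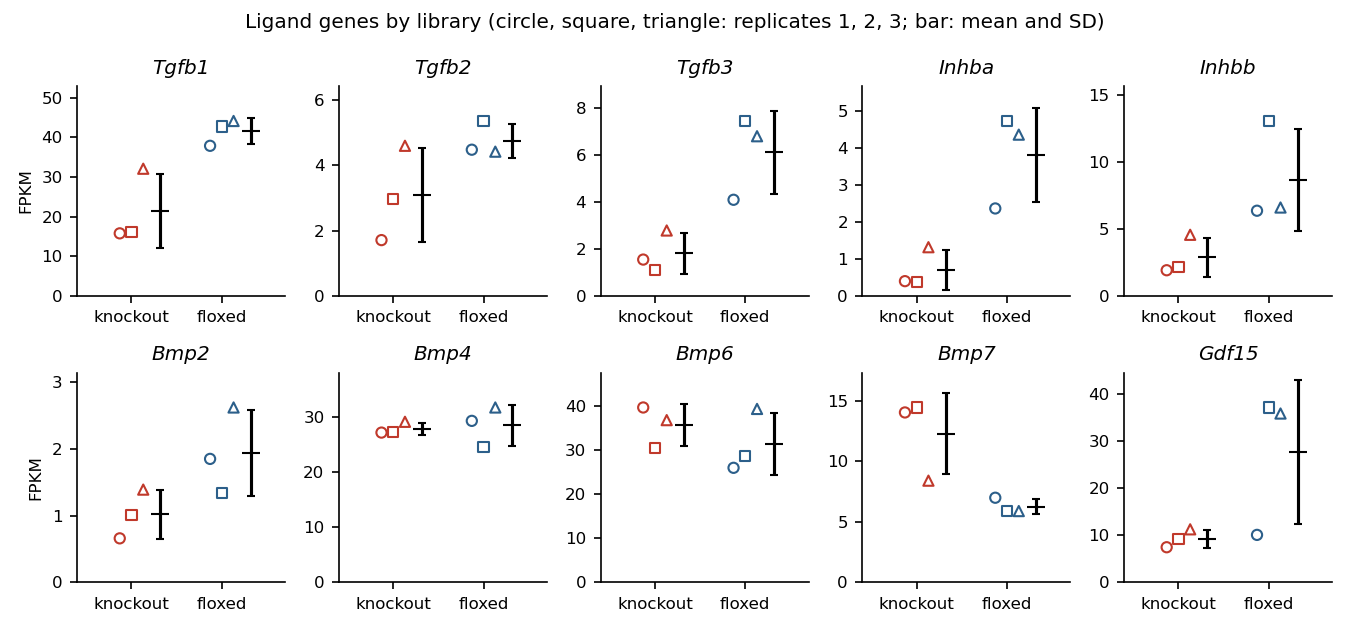
FPKM of 10 ligand genes in each library, knockout left and floxed right, with the mean and SD beside the points. Tgfb1, Tgfb3, Inhba and Inhbb lie lower in all knockout libraries, Bmp7 lies higher (8.40 to 14.44 against 5.89 to 6.99 FPKM), and Bmp4 and Bmp6 overlap.

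The 4 Ltbp genes encode matrix proteins, most of which hold latent TGF-beta. All had lower means in knockout kidneys, without overlap for 2 of them. Of all genes tested, 65.4% had a log2 fold change below 0 and 21.7% were lower without overlap. Ltbp3, which binds the latent TGF-beta complex, read 16.74, 20.35 and 18.20 FPKM in knockout replicates 1, 2 and 3, against 36.18, 31.93 and 29.90 FPKM in floxed replicates 1, 2 and 3. Here knockout replicate 3 lay with the other knockouts (log2 fold change -0.79, SE 0.128, limma adjusted p = 0.0547). Ltbp2, a relative found on elastic fibres that does not bind latent TGF-beta, read 3.70, 4.65 and 8.26 FPKM in knockout kidneys, against 15.90, 20.09 and 13.75 FPKM in floxed kidneys. The groups did not overlap, and the mean was 2.99-fold higher in floxed kidneys (log2 fold change -1.47, SE 0.270, limma adjusted p = 0.0612). Ltbp1, a latent TGF-beta binding protein, read 3.05, 2.77 and 6.43 FPKM in knockout kidneys, against 6.81, 6.19 and 6.82 FPKM in floxed kidneys. Its knockout replicate 3 lay among the floxed libraries (limma adjusted p = 0.191). Ltbp4, another of these proteins, read 7.06, 13.51 and 14.23 FPKM in knockout kidneys, against 22.80, 11.90 and 31.11 FPKM in floxed kidneys, with overlap (limma adjusted p = 0.233).

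The receptors and Smads of the arm overlapped between groups in every case. The type I receptor Tgfbr1 read 16.25, 23.89 and 30.15 FPKM in knockout replicates 1, 2 and 3, against 28.99, 39.21 and 32.48 FPKM in floxed replicates 1, 2 and 3 (limma adjusted p = 0.213). The type II receptor Tgfbr2 read 24.93, 27.39 and 49.75 FPKM in knockout kidneys, against 44.79, 49.45 and 55.50 FPKM in floxed kidneys (limma adjusted p = 0.207). For both receptors knockout replicate 3 fell inside the floxed range and the other knockout libraries below it. The log2 fold change was -0.53 for Tgfbr1 and -0.60 for Tgfbr2. Without knockout replicate 3 it was -0.73 and -0.90, which is no added support since that library was the one inside the floxed range. Acvr1b, the type I activin receptor, was among the few members that read higher on average, at 17.2 ± 1.03 FPKM in knockout and 14.3 ± 2.14 FPKM in floxed kidneys (limma adjusted p = 0.276).

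Smad3, the factor that binds DNA at most TGF-beta targets, read 13.87, 14.68 and 23.00 FPKM in knockout replicates 1, 2 and 3, against 22.06, 19.71 and 20.06 FPKM in floxed replicates 1, 2 and 3. Knockout replicate 3 was the highest of the 6 (limma adjusted p = 0.391), and the log2 fold change was -0.28 with that library and -0.50 without it. Smad2 read 5.06, 6.96 and 10.41 FPKM in knockout kidneys, against 7.94, 7.95 and 9.23 FPKM in floxed kidneys, so its groups overlapped too (limma adjusted p = 0.619). Its log2 fold change of -0.19 became positive without knockout replicate 1. The common partner Smad4, a shared gene, read 11.31, 14.14 and 16.84 FPKM in knockout kidneys, against 16.19, 16.24 and 17.04 FPKM in floxed kidneys (limma adjusted p = 0.380). The 95% limma interval of the log2 fold change was -0.74 to 0.36 for Smad2, -0.75 to 0.18 for Smad3 and -0.60 to 0.14 for Smad4, so differences of these sizes were not excluded.

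Genes that TGF-beta induces as brakes on its own signal gave a split. Pmepa1, a membrane protein induced by TGF-beta that holds back Smad2 and Smad3, read 17.56, 17.52 and 27.45 FPKM in knockout replicates 1, 2 and 3, against 40.20, 49.79 and 49.53 FPKM in floxed replicates 1, 2 and 3. The groups lay well apart (log2 fold change -1.14, SE 0.198, limma adjusted p = 0.0547). Skil, the nuclear co-repressor SnoN, read 7.31, 12.73 and 14.82 FPKM in knockout kidneys, against 19.94, 20.20 and 21.09 FPKM in floxed kidneys. Again the groups did not overlap (log2 fold change -0.81, SE 0.237, limma adjusted p = 0.113). Smad7, the inhibitory Smad that targets the receptor for degradation, read 6.10, 8.23 and 11.39 FPKM in knockout kidneys, against 10.85, 10.01 and 11.31 FPKM in floxed kidneys. Its knockout replicate 3 was the highest of the 6 libraries (limma adjusted p = 0.350). Among secreted activin inhibitors, Fstl3 read 4.17, 4.24 and 7.83 FPKM in knockout kidneys, against 7.16, 10.86 and 9.01 FPKM in floxed kidneys (limma adjusted p = 0.169, log2 fold change -0.67, and -0.93 without knockout replicate 3). Its exons overlap those of Prss57 on the other strand, and strand use in counting is not given in the sources used here. Follistatin (Fst) showed no common direction, at 8.66, 1.69 and 1.39 FPKM in knockout kidneys, against 1.71, 2.11 and 2.75 FPKM in floxed kidneys. Only knockout replicate 1 was high, and without it the sign of the log2 fold change turned. Tgfbi, a matrix protein named for its induction by TGF-beta, read 22.84, 28.86 and 65.62 FPKM in knockout kidneys, against 59.06, 68.63 and 58.61 FPKM in floxed kidneys. Knockout replicate 3 was at the floxed level and the other knockout libraries below it (limma adjusted p = 0.223, log2 fold change -0.80, and -1.24 without knockout replicate 3).

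The BMP ligands did not share that pattern. Bmp7, the BMP of tubule cells, read 14.03, 14.44 and 8.40 FPKM in knockout replicates 1, 2 and 3, against 6.99, 5.90 and 5.89 FPKM in floxed replicates 1, 2 and 3. All knockout libraries lay above all floxed ones, with replicate 3 the closest to them. The mean was 12.3 ± 3.38 FPKM in knockout and 6.26 ± 0.632 FPKM in floxed kidneys (SD, n = 3 each), 1.96-fold higher in knockout. Over all genes a log2 fold change of 0.84 missed the threshold (SE 0.213, limma adjusted p = 0.0932), and it was 0.99 with median-ratio scaling. Without knockout replicate 3 it was 1.07, which is no added support since that library was the closest to the floxed ones. The knockout libraries had the same order for Bmp7 as for the summed tubule markers given below.

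Bmp4 and Bmp6 were the most abundant BMP ligands in every library, and neither stood apart between the groups. Bmp4, a stromal BMP, read 27.10, 27.15 and 29.05 FPKM in knockout replicates 1, 2 and 3, against 29.22, 24.43 and 31.64 FPKM in floxed replicates 1, 2 and 3. Its log2 fold change was -0.03 (limma adjusted p = 0.908, 95% interval -0.33 to 0.28), with the sign reversed under median-ratio and quantile scaling. Bmp6, known as a regulator of iron balance, read 39.58, 30.42 and 36.72 FPKM in knockout kidneys, against 25.93, 28.59 and 39.25 FPKM in floxed kidneys (limma adjusted p = 0.519). Its exons overlap those of Txndc5. Bmp2 was near the detection filter at 0.66, 1.01 and 1.39 FPKM in knockout kidneys, against 1.85, 1.34 and 2.62 FPKM in floxed kidneys (limma adjusted p = 0.204). Within the 4 BMP ligands, the Bmp7 share was 17.2%, 19.8% and 11.1% in knockout replicates 1, 2 and 3, against 10.9%, 9.79% and 7.42% in floxed replicates 1, 2 and 3.

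Set against each other within a library, where scaling cancels, the balance of the ligands differed between the groups without overlap. The summed FPKM of Tgfb1, Tgfb2 and Tgfb3 over that of Bmp2, Bmp4, Bmp6 and Bmp7 was 0.234, 0.276 and 0.522 in knockout replicates 1, 2 and 3, against 0.726, 0.922 and 0.697 in floxed replicates 1, 2 and 3. The Tgfb1 to Bmp7 ratio was 1.13, 1.11 and 3.82 in knockout kidneys, against 5.42, 7.24 and 7.49 in floxed kidneys. Both ratios were chosen after the values were seen and are given as a description. The BMP ligand sum itself overlapped, at 73.0 to 81.4 FPKM in knockout and 60.3 to 79.4 FPKM in floxed kidneys, whereas the TGF-beta sum was 19.0 to 39.5 FPKM in knockout and 46.4 to 55.5 FPKM in floxed kidneys.

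BMP receptors were mostly lower on average, unlike the ligands. Acvrl1, the endothelial type I receptor of the BMP arm, read 5.41, 7.54 and 9.29 FPKM in knockout replicates 1, 2 and 3, against 14.98, 11.68 and 13.98 FPKM in floxed replicates 1, 2 and 3. The groups did not overlap (log2 fold change -0.81, SE 0.198, limma adjusted p = 0.0876). The summed endothelial markers, 8 genes such as Pecam1 and Cdh5, stood at 89.5 to 111 FPKM in knockout and 96.7 to 181 FPKM in floxed kidneys, and their part in this difference was not tested. Acvr1, a type I receptor for BMP6 and BMP7, read 6.02, 6.89 and 9.39 FPKM in knockout kidneys, against 9.26, 11.37 and 13.52 FPKM in floxed kidneys (limma adjusted p = 0.154). Knockout replicate 3 lay just inside the floxed range. The type II receptor Bmpr2 read 7.07, 8.76 and 10.81 FPKM in knockout kidneys, against 11.00, 11.77 and 11.83 FPKM in floxed kidneys, without overlap but with a narrow gap (limma adjusted p = 0.221). Bmpr1a read 13.52, 16.20 and 20.00 FPKM in knockout kidneys, against 18.85, 22.45 and 23.11 FPKM in floxed kidneys (limma adjusted p = 0.226). Its relative Bmpr1b was scarce, at 2.57, 4.50 and 2.89 FPKM in knockout kidneys, against 3.70, 2.16 and 2.25 FPKM in floxed kidneys (limma adjusted p = 0.570). Bmpr1b was the only member of this receptor group with a mean higher in knockout.

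Among the BMP Smads, Smad1 and Smad5 had lower means in knockout kidneys and the scarce Smad9 a higher one. Smad1 read 7.71, 9.50 and 13.27 FPKM in knockout replicates 1, 2 and 3, against 14.11, 13.67 and 15.33 FPKM in floxed replicates 1, 2 and 3. Smad5 read 11.80, 14.80 and 15.87 FPKM in knockout kidneys, against 17.32, 16.87 and 17.09 FPKM in floxed kidneys. Neither pair of groups overlapped, with log2 fold changes of -0.49 (SE 0.191, limma adjusted p = 0.179) and -0.27 (SE 0.135, limma adjusted p = 0.263). Smad9 did not reach the filter, at 0.33, 0.98 and 0.41 FPKM in knockout kidneys, against 0.34, 0.14 and 0.20 FPKM in floxed kidneys. The summed FPKM of Smad2 and Smad3 over that of Smad1, Smad5 and Smad9 was 0.954, 0.856 and 1.13 in knockout kidneys, against 0.944, 0.902 and 0.898 in floxed kidneys. Unlike the ligands, the Smad messages of the arms therefore kept an overlapping ratio.

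The BMP inhibitors among the members differed in level and in direction. Fstl1, a stromal glycoprotein that can bind BMP4, read 14.51, 14.23 and 34.18 FPKM in knockout replicates 1, 2 and 3, against 46.24, 55.70 and 55.92 FPKM in floxed replicates 1, 2 and 3. The groups did not overlap, and the mean was 2.51-fold higher in floxed kidneys (log2 fold change -1.40, SE 0.324, limma adjusted p = 0.0806). Gremlin (Grem1), a BMP antagonist known from fibrotic kidney, was below the filter at 0.00, 0.22 and 0.26 FPKM in knockout kidneys, against 0.73, 0.76 and 0.82 FPKM in floxed kidneys. These levels do not overlap, but they stand for few fragments. Noggin (Nog), another antagonist below the filter, read 0.39, 0.90 and 0.31 FPKM in knockout kidneys, against 0.72, 1.51 and 1.11 FPKM in floxed kidneys. The inhibitory Smad6, itself a BMP target, read 5.34 ± 0.363 FPKM in knockout and 5.10 ± 0.926 FPKM in floxed kidneys (SD, n = 3 each, limma adjusted p = 0.807).

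The Id genes, which encode inhibitors of basic helix-loop-helix factors and are the best-known BMP targets, gave no common picture. Id2 and Id3 were the most abundant members in every library. Id4 read 12.60, 22.68 and 12.92 FPKM in knockout replicates 1, 2 and 3, against 10.54, 8.06 and 8.66 FPKM in floxed replicates 1, 2 and 3. Every knockout value exceeded every floxed value (log2 fold change 0.72, SE 0.237, limma adjusted p = 0.138). Id1 read 17.26, 65.24 and 51.14 FPKM in knockout kidneys, against 23.00, 21.61 and 31.72 FPKM in floxed kidneys. Knockout replicates 2 and 3 were above the floxed range and replicate 1 below it (limma adjusted p = 0.425). Id2 read 167.07, 232.22 and 287.37 FPKM in knockout kidneys, against 180.89, 130.21 and 171.37 FPKM in floxed kidneys (limma adjusted p = 0.239). Id3 read 66.42, 197.74 and 186.51 FPKM in knockout kidneys, against 148.33, 122.92 and 195.11 FPKM in floxed kidneys (limma adjusted p = 0.807). For all 4 Id genes knockout replicate 1 was the lowest of the knockout libraries, as it was for the median of the TGF-beta and activin arm. The summed Id level was 263 to 538 FPKM in knockout and 283 to 407 FPKM in floxed kidneys.

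**Figure D4:**
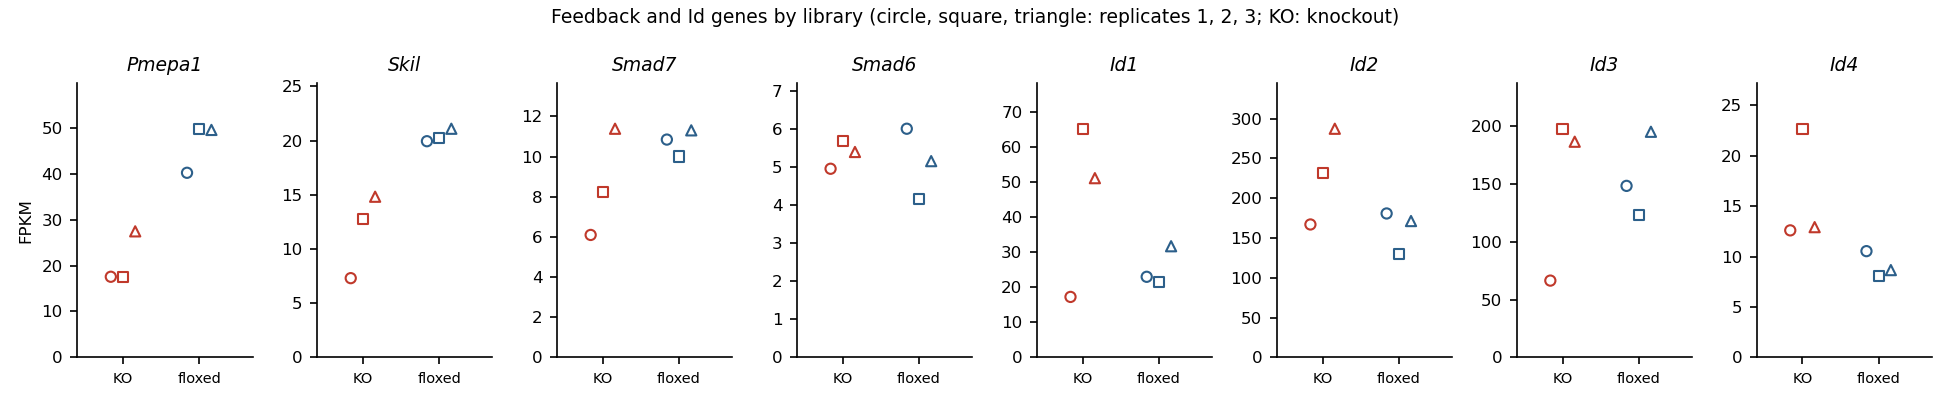
FPKM of feedback genes (Pmepa1, Skil, Smad7, Smad6) and of the 4 Id genes in each library, knockout left and floxed right. Pmepa1 and Skil lie lower in all knockout libraries and Id4 lies higher in all of them, while Smad7, Smad6, Id1, Id2 and Id3 overlap.

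The start regions of a few of these genes are shown because the arms use different DNA letters: activated Smad3 and Smad4 are known to bind the motif CAGACA, and the Smad1 and Smad5 complex binds GC-rich sites such as GGCGCC. The 250 bases before the start were taken from RefSeq (GRCm38.p6), in which 36 of the 51 genes had an entry. Each is printed from 5′ to 3′ on the strand of its gene, with a motif, where there is one, in capitals. The Tgfb1 window is chr7:25686752-25687001 on the plus strand and holds neither motif. The Tgfb2 window, chr1:186705990-186706239 on the minus strand, holds 1 CAGACA. The Id2 window (chr12:25096093-25096342, minus strand) and the Id4 window (chr13:48260866-48261115, plus strand) hold 1 GGCGCC each.
Tgfb1: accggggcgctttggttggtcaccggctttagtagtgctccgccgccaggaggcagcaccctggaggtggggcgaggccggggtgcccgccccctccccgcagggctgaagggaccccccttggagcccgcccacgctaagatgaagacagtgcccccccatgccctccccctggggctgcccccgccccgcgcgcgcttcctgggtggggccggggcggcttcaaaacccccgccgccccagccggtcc
Tgfb2: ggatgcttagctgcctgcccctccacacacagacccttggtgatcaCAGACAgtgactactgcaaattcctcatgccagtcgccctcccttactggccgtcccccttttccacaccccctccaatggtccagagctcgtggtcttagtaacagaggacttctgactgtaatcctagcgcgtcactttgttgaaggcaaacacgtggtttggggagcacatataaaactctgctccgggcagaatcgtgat
Id2: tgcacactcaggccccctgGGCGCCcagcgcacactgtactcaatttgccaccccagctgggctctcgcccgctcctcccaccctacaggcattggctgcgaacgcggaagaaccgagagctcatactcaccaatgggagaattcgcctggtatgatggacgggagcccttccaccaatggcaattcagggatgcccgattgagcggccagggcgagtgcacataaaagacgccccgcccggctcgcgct
Id4: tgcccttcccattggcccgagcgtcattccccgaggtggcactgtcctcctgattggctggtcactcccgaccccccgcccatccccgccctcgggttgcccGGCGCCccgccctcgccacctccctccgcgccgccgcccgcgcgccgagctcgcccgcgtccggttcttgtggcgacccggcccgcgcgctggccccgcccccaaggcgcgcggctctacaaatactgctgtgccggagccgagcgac
Both strands were searched, so that CAGACA also counts where it lies on the other strand. It occurred upstream of 4 of 14 genes of the TGF-beta and activin arm, 1 of 15 of the BMP arm and 17.1% of the 32851 promoters in the table. GGCGCC, which reads the same on both strands, occurred upstream of 3 of 14 and 7 of 15 genes in those arms and in 9.6% of all promoters. The genes of the arms with several annotated starts had more chances to match than a single promoter. The BMP arm genes with GGCGCC were Bmpr1a, Bmpr2, Smad5, Smad9, Grem1, Id2 and Id4, of which Smad9, Id2 and Id4 had higher means in knockout kidneys and Bmpr1a, Bmpr2, Smad5 and Grem1 lower ones. A match describes these letters and is not a sign of a bound site.

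Among the shared genes, the protease Bmp1 and the stress cytokine Gdf15 had the largest differences. Bmp1 is not a BMP but the procollagen C-proteinase, which also releases latent TGF-beta from its binding proteins. It read 8.34, 8.41 and 20.31 FPKM in knockout replicates 1, 2 and 3, against 27.47, 31.65 and 28.71 FPKM in floxed replicates 1, 2 and 3. The groups did not overlap (log2 fold change -1.29, SE 0.318, limma adjusted p = 0.0885), and without knockout replicate 3 the log2 fold change was -1.69. Gdf15, a distant relative that signals to the hindbrain, read 7.46, 9.19 and 11.26 FPKM in knockout kidneys, against 10.08, 37.10 and 35.82 FPKM in floxed kidneys. Floxed replicate 1 lay within the knockout range, so that difference rests on floxed replicates 2 and 3 (log2 fold change -1.29, SE 0.470, limma adjusted p = 0.160). Gdf10, a ligand close to Bmp3, was scarce, at 0.58 to 1.84 FPKM in knockout and 0.65 to 4.53 FPKM in floxed kidneys.

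The remaining shared genes had smaller differences. Bambi, a pseudoreceptor without kinase activity, read 2.38, 3.64 and 2.58 FPKM in knockout replicates 1, 2 and 3, against 5.37, 3.46 and 5.97 FPKM in floxed replicates 1, 2 and 3 (limma adjusted p = 0.159). Knockout replicate 2 overlapped floxed replicate 2. The co-repressor Ski read 17.24, 23.08 and 28.28 FPKM in knockout kidneys, against 29.44, 30.20 and 31.34 FPKM in floxed kidneys, a narrow gap without overlap (limma adjusted p = 0.207). The ubiquitin ligases that degrade Smads and receptors overlapped, with Smurf1 at 9.07 ± 2.61 FPKM in knockout and 12.0 ± 1.27 FPKM in floxed kidneys, and Smurf2 at 8.16 ± 1.15 FPKM in knockout and 9.71 ± 1.66 FPKM in floxed kidneys. The co-receptor betaglycan (Tgfbr3) read 6.70 ± 1.81 FPKM in knockout and 5.96 ± 1.31 FPKM in floxed kidneys. The type II receptor Acvr2a read 6.21 ± 0.969 FPKM in knockout and 6.48 ± 0.409 FPKM in floxed kidneys, and its relative Acvr2b 4.28 ± 0.640 FPKM in knockout and 3.06 ± 1.18 FPKM in floxed kidneys (SD, n = 3 each). Limma adjusted p lay between 0.258 and 0.804 for these 5 genes. The log2 fold change of Acvr2a was -0.06 and turned positive with median-ratio or quantile scaling, while its exons overlap those of Orc4.

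Other components of the family were taken from a separate list of 61 genes, of which 59 were in the table and 34 were tested. None passed over all genes, and 10 were lower and 2 higher at an unadjusted limma p under 0.05, with a median log2 fold change of -0.18 (all genes tested, -0.12). Over all genes tested 16.3% were lower and 8.38% higher at that p. The 6 genes with the smallest p were all lower. Nrros, which anchors latent TGF-beta on myeloid cells, read 15.77, 17.60 and 20.73 FPKM in knockout replicates 1, 2 and 3, against 29.46, 26.91 and 28.48 FPKM in floxed replicates 1, 2 and 3 (limma adjusted p = 0.0683). Thrombospondin 1 (Thbs1), which can activate the latent complex, read 26.22, 21.41 and 23.11 FPKM in knockout kidneys, against 37.21, 84.58 and 80.00 FPKM in floxed kidneys (limma adjusted p = 0.0740). Integrin beta-5 (Itgb5) read 59.0 ± 6.21 FPKM in knockout and 105 ± 23.6 FPKM in floxed kidneys, and Emilin1, a matrix protein that restrains TGF-beta processing, 15.4 ± 6.93 FPKM in knockout and 41.2 ± 7.22 FPKM in floxed kidneys. The co-receptor endoglin (Eng) read 20.0 ± 2.05 FPKM in knockout and 36.3 ± 6.12 FPKM in floxed kidneys, and the focal adhesion protein Tgfb1i1 11.5 ± 7.03 FPKM in knockout and 27.8 ± 2.59 FPKM in floxed kidneys (SD, n = 3 each). For all 6 genes, which were picked by their p, the groups did not overlap. In the whole list 12 of the 34 tested genes were lower and 2 higher without overlap, beside 21.7% and 10.0% of all genes tested. Other genes of the list that act on latent TGF-beta, named after their values were seen, overlapped between the groups, with log2 fold changes of -0.16 for Itgav, -0.12 for Itgb6, 0.10 for Itgb8 and 0.16 for Furin.

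Target genes of the TGF-beta arm had lower means in knockout kidneys. Of 20 TGF-beta target genes, all had a log2 fold change below 0, with a median of -1.37, and 15 were lower at an unadjusted limma p under 0.05, although none passed over all genes. Over all genes tested 65.4% were below 0, 16.3% were lower at that p, and the median was -0.12. Without overlap 13 of the 20 were lower, beside 21.7% of all genes tested. The groups overlapped for the other 7, which were Acta2, Postn, Cdkn1a, Cdkn2b, Junb, Snai1 and Itgb6. Among these, Cdkn1a, named after its values were seen, read 11.37, 17.97 and 58.97 FPKM in knockout kidneys, against 24.23, 41.10 and 45.45 FPKM in floxed kidneys, with knockout replicate 3 the highest of all. Several of the 20 are matrix genes expressed mainly by fibroblasts. The collagen chain Col1a2 read 36.54, 28.19 and 93.09 FPKM in knockout replicates 1, 2 and 3, against 152.91, 193.16 and 202.35 FPKM in floxed replicates 1, 2 and 3 (limma adjusted p = 0.0687). Knockout replicate 3 was the highest knockout library and still below the floxed range. The crosslinking enzyme Lox read 8.86 ± 5.21 FPKM in knockout and 28.3 ± 6.29 FPKM in floxed kidneys, the actin-binding Tagln 38.5 ± 27.2 FPKM in knockout and 113 ± 16.1 FPKM in floxed kidneys, and the transcription factor Snai2 2.12 ± 0.931 FPKM in knockout and 5.36 ± 1.37 FPKM in floxed kidneys. Thbs1, given above, and Tgfb1i1 and Itgb6 stand in this list and in the list of components. Col1a1, Col1a2 and Col3a1 also stand among the fibroblast markers, and Acta2 among the smooth muscle markers.

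Of 12 further BMP target genes 6 were tested, with 3 lower and 0 higher at an unadjusted limma p under 0.05 (16.3% lower and 8.38% higher over all genes tested) and a median of -0.31. The osteogenic factor Runx2 read 1.17 ± 0.430 FPKM in knockout and 2.96 ± 0.724 FPKM in floxed kidneys, Atoh8 2.52 ± 0.759 FPKM in knockout and 4.89 ± 1.62 FPKM in floxed kidneys, and the Notch and BMP target Hey1 0.753 ± 0.202 FPKM in knockout and 1.29 ± 0.0808 FPKM in floxed kidneys. Hey1 reached 1 FPKM in the floxed libraries only and cleared the filter through them. Gata2, Gata3 and Hes1 overlapped between the groups. Gata2 read 11.09, 18.18 and 9.61 FPKM in knockout kidneys, against 10.87, 8.09 and 7.91 FPKM in floxed kidneys. Gata3 averaged 9.25 ± 3.92 FPKM in knockout and 8.49 ± 1.93 FPKM in floxed kidneys, and these 2 of the 6 had a log2 fold change above 0.

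Markers of several cell types differed between the same libraries. The 10 fibroblast markers summed to 141.71, 107.0 and 357.75 FPKM in knockout replicates 1, 2 and 3, against 560.9, 633.49 and 711.51 FPKM in floxed replicates 1, 2 and 3, with 9 of the 10 lower at an unadjusted limma p under 0.05. The 7 of them that stand in no other list summed to 48.5, 47.2 and 90.5 FPKM in knockout replicates 1, 2 and 3, against 161, 164 and 182 FPKM in floxed replicates 1, 2 and 3. The 8 macrophage markers summed to 385 to 662 FPKM in knockout and 856 to 1182 FPKM in floxed kidneys, with 8 of 8 lower at that level. The 10 tubule markers summed to 3335, 3718 and 1454 FPKM in knockout replicates 1, 2 and 3, against 1242, 1182 and 1402 FPKM in floxed replicates 1, 2 and 3, with 8 of 10 higher. Over all genes tested 16.3% were lower and 8.38% higher at that level. Smooth muscle markers summed to 52.6 to 83.4 FPKM in knockout and 87.7 to 144 FPKM in floxed kidneys, and podocyte markers to 70.6 to 93.6 FPKM in knockout and 98.7 to 148 FPKM in floxed kidneys. At that level 2 of 6 smooth muscle markers, 5 of 6 podocyte markers and 1 of the 8 endothelial markers were lower. No marker of these lists was at 0 in all libraries. Knockout replicate 3, which had the highest Tgfb1, Inhba, Fstl1, Bmp1 and Pmepa1 and the lowest Bmp7 of the knockout libraries, also had the highest fibroblast, macrophage and smooth muscle sums and the lowest tubule sum among them. Its podocyte sum of 70.6 FPKM was instead the farthest of the knockout libraries from the floxed ones. Its endothelial sum of 103 FPKM lay between those of knockout replicates 1 and 2. The part of these cell markers in the differences was not tested.

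**Figure D5:**
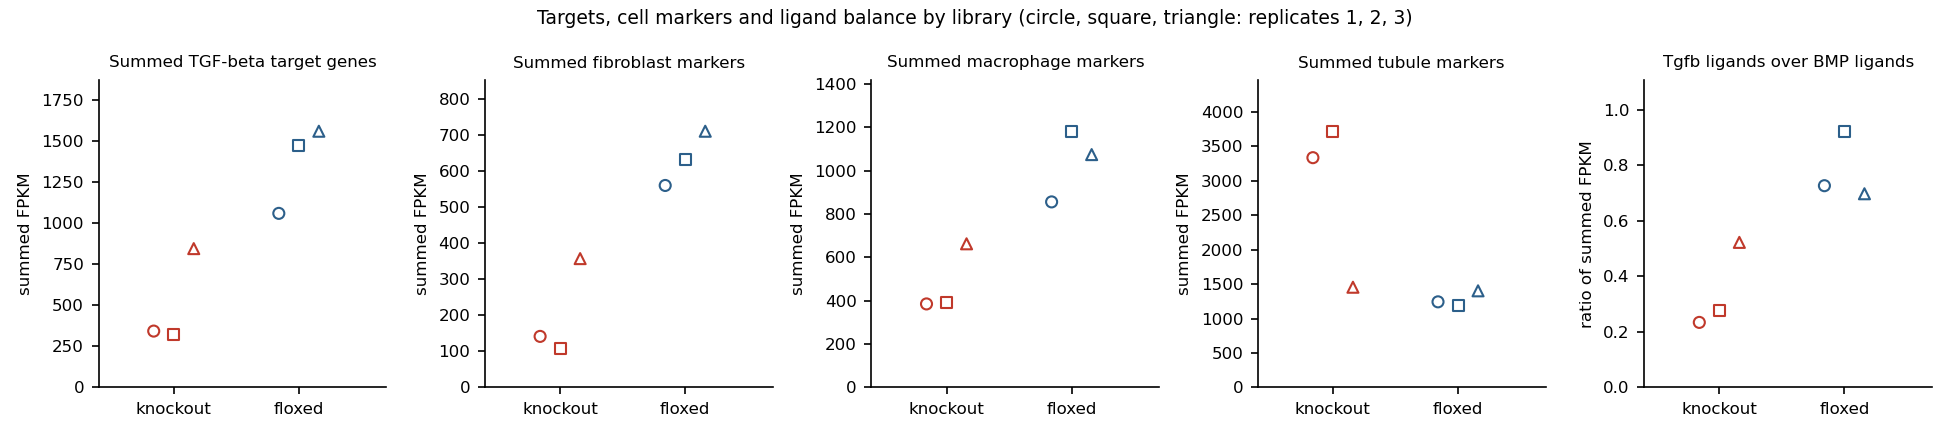
Summed FPKM of 20 TGF-beta target genes, 10 fibroblast, 8 macrophage and 10 tubule markers, and the ratio of summed TGF-beta to summed BMP ligand FPKM, in each library, knockout left and floxed right. The target and fibroblast sums share Col1a1, Col1a2 and Col3a1. Knockout replicate 3 (triangle) lies nearest to the floxed libraries in every panel, with a ligand ratio of 0.522 against 0.697 to 0.922 in floxed kidneys.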

How the data were processed

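Messenger RNA of obstructed kidney was measured in 3 knockout and 3 floxed libraries, grouped and numbered by the sample titles. The authors deposited 1 table of FPKM values, 1 column a library, per the file headers, with 2 decimals kept. Per the submitters' processing notes, reads were placed on mm9. The sources used here do not name the aligner, the counting tool, the annotation or the use of strand. FPKM is relative to all mapped fragments, so abundant genes can move the rest, and reads of overlapping genes cannot be told apart. Exons of 15 members overlap another gene (5 a protein-coding one) in GENCODE M21, whose coordinates are not printed. Per the labels' protocols, TRIzol was used for RNA extraction and an Illumina protocol for the libraries.

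A gene was tested where at least 3 libraries reached 1 FPKM. Tested genes were fitted with limma 3.58.1 in R 4.3.3 on log2(FPKM + 1), with the prior variance following mean expression and no term but genotype. P-values are two-sided and were adjusted over 13390 genes (Benjamini-Hochberg, threshold 0.05). The fit was tested on simulated data with planted changes larger than those of any member and with a capped spread. That test therefore does not show how well the fit finds changes of the members' size. Fold changes on this scale understate low genes. Means are given with SD, and single members also had an exact permutation test. Depth was estimated from transcripts of 300 to 2000 nucleotides, as the depth that brought low values nearest to whole fragments. At that depth 63.0% to 64.9% of low values lay within 0.2 of a whole fragment. Unspaced values would give 40% at a depth set beforehand. After such a search they could give more, so the 40% is no test of the estimate. The estimated depth is approximate, and its precision for members under 1 FPKM is low. No pair of libraries was identical (0 pairs). Alternatives covered the pseudocount, the filter, scaling, the trend, array weights, the replicate number as a block and each library left out.

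The members, arms and gene lists were chosen with earlier results of these data known. Every member is named. Each library's value is given for members whose groups did not overlap or whose unadjusted p was under 0.05 and for 20 core members. Of the further lists, up to 6 genes with the smallest unadjusted p and a mean of at least 1 FPKM are named, and 1 of these is not reported here. Python 3.11.15, pandas 2.3.3 and matplotlib 3.10.9 made the tables and plots.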

Additional observations from a re-analysis of the deposited data

How the results depend on the processing

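The members past the adjusted threshold numbered 0 in every alternative except array weights, with 12, and without knockout replicate 3, with 25, so leaving out each library gave 0 to 25. Over all genes 6.48% were lower and 4.39% higher with array weights, and 15.4% lower and 9.02% higher without knockout replicate 3. Median-ratio scaling gave 11 members lower and 5 higher at an unadjusted limma p under 0.05 (11.3% and 13.5% of all genes), and 5 members lay higher without overlap. Quantile scaling gave 4 higher at that p (12.2% of all genes) and 5 higher without overlap, and array weights gave 4 higher at that p (12.1% of all genes). Leaving out each library gave 11 to 30 members lower and 1 to 4 higher at that p, where 10.1% to 27.1% of all genes were lower and 4.94% to 13.4% higher. It gave 15 to 31 members lower and 2 to 6 higher without overlap. Fewer libraries separate more readily for any gene, and the share of all genes without overlap was not computed in the alternatives. These counts without overlap therefore show nothing particular to the members. The arm medians moved by less than the spread of the knockout libraries in every alternative. Of the 19 members with an unadjusted p under 0.05, none changed sign in any alternative that tested it, and 16 passed the adjusted threshold without knockout replicate 3 and 12 with array weights. Knockout replicate 3 was singled out for lying toward the floxed libraries, so passing without it is no added support. Among all 48 tested, Bmp4 and Acvr2a changed sign with median-ratio or quantile scaling, and Smad2, Fst, Id3 and Acvr2a without knockout replicate 1. Smad6 and Tgfbr3 did so without floxed replicate 2, and Bmp4 without floxed replicate 3. Replicate numbers did not pair the samples (correlations of deviations of -0.126, -0.07 and 0.034 for numbers 1, 2 and 3), and not every library correlated best with its own number. The replicate block gave 21 lower and 2 higher at the unadjusted level (13.8% and 7.29% of all genes) and 0 past the adjusted threshold. The cause of these shifts was not tested. The estimated depth limits what can be said of Grem1, Nog and Smad9.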

Other observations

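Some further family members outside the rule for named genes were chosen after their values were seen. Sostdc1, a secreted BMP antagonist of the distal tubule, read 55.29, 58.72 and 22.72 FPKM in knockout replicates 1, 2 and 3, against 25.22, 20.88 and 20.18 FPKM in floxed replicates 1, 2 and 3 (log2 fold change 0.90, limma adjusted p = 0.176). Only knockout replicates 1 and 2 were above the floxed range. The antiproliferative Smad partner Tob1 read 39.32, 42.06 and 29.50 FPKM in knockout kidneys, against 29.14, 23.02 and 28.36 FPKM in floxed kidneys, without overlap (limma adjusted p = 0.177). These were the only components of the wider list that read higher at an unadjusted limma p under 0.05.

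On the lower side, Lrrc32, which presents latent TGF-beta at the cell surface, read 3.38, 4.41 and 9.84 FPKM in knockout kidneys, against 12.03, 11.12 and 13.90 FPKM in floxed kidneys (limma adjusted p = 0.121). Fibrillin 1 (Fbn1), the microfibril to which latent TGF-beta binding proteins attach, read 2.40, 1.50 and 5.37 FPKM in knockout kidneys, against 6.25, 9.09 and 9.53 FPKM in floxed kidneys (limma adjusted p = 0.102). In both genes the knockout libraries all lay below the floxed ones, with knockout replicate 3 the closest.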
